A study of Mus musculus with 81 samples.

Results

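Complexes II, III and IV of the mitochondrial respiratory chain are described here through a list of 35 nuclear genes for their subunits, for cytochrome c, for the supercomplex factor Cox7a2l and for assembly factors of complex IV. Each gene was read from its probe set that names a single gene symbol and has the highest mean over 81 arrays. In this way 31 of the 35 genes were measured, out of 22180 genes in all. Uqcr10, Cox6c, Cox11 and Sco2 lie only on probe sets that name several genes and were not used.

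The samples were whole hearts of male mice, 29 weeks of age and killed after a night without food. The strains were the BXD family, which are inbred recombinants of C57BL/6J and DBA/2J, and those 2 parents. On chow there were 42 arrays and on a high fat diet 39, with 1 array per strain and diet, and each array held pooled RNA of about 5 animals. Both diets were present for 39 strains, namely 37 BXD strains and both parents, while BXD60, BXD79 and BXD92a had a chow array alone. The protocol text shared by every sample speaks of chow alone, although the labels of 39 samples give the high fat diet. What that diet held is not given in the sources used. Because animals were pooled, the spread between animals is not seen. The p-values of diet tests rest on how far the diet difference varied between strains. Those of strain and parent tests rest on how far the 2 arrays of a strain disagreed beyond the diet difference.

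Values are rescaled expression units: the probe sets of each array average 8 with an SD of 2, so a difference of 1 unit is 0.5 of an array's SD. Whether the scale is log2 is unknown, and differences are given in units, not as folds. Levels of different genes come from different probe sets and are not compared. A gene is said to be higher or lower, or called, where limma's test gave an adjusted p under 0.05 over all 22180 genes.

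Complex II, succinate dehydrogenase, passes electrons from succinate to ubiquinone and is also an enzyme of the citric acid cycle. Complex III passes them from ubiquinol to the small soluble carrier cytochrome c, and complex IV, cytochrome c oxidase, passes them to oxygen. Complexes III and IV pump protons and complex II does not. Several complex IV subunits have a widely expressed form and a form restricted to heart and skeletal muscle (Cox6a2, Cox7a1, Cox8b) or chiefly to lung (Cox4i2). The heart depends on this chain for nearly all of its ATP.

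Over all genes the diets differed widely, with 45.0% of genes called, 23.8% higher and 21.2% lower on high fat. Spike-in controls on the arrays differed too: 40.2% of 92 ERCC probe sets were called between the diets, and 95% of them differed by at most 0.247 units in size, a bound that 0 of the 31 members exceeded. These spike-ins had a mean level of 5.96, dimmer than any member. The same bound was 0.388 for 75 bacterial and phage controls, which 0 members exceeded, and 0.0705 for 23 background probe sets, which 11 members exceeded, 10 of them called. A fit that takes the main component of the control probe sets as a covariate called 36% of genes and is quoted below where it matters. Markers of ventricular cardiomyocytes were bright, with mean levels from 11.2 to 15.98, and 5 of 8 were lower on high fat. Their summed level ran from 118.0 to 121.3 units on chow and from 117.6 to 121.0 on high fat. Of markers of other cells, 2 of 5 endothelial, 3 of 5 fibroblast, 3 of 6 macrophage and 2 of 6 pericyte and smooth muscle genes were higher, and 0 lower. Of lung markers 4 of 5 were higher, with a mean difference of 0.240 ± 0.220 (SD), positive in 35 strains, at mean levels of at most 7.77. Skeletal muscle had 2 of 8 and brown fat 1 of 5 higher, while white adipocytes had 2 of 7, liver 1 of 5 and erythroid cells 1 of 1 lower. The summed level of 5 atrial markers ranged from 43.7 to 70.4 on chow and from 43.7 to 70.9 on high fat, with 0 called. In RNA of a whole organ, fewer cells of a type and less RNA per cell cannot be told apart.

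The first comparison asked whether the members differed between the diets within strains. Of the 31 measured members 6 were higher on high fat, 7 were lower and 18 were not called, against 45.0% called over all genes and 40.9% over the 6665 genes at or above the level of the dimmest member. The median difference over the members was -0.0252 units and the median size of a difference was 0.0603, beside 0.00526 and 0.0841 over all genes. In both directions the share of members called was near or below the background share. Complexes III and IV each held members that were higher and members that were lower. In complex III the only higher member was Uqcrq, whose call depended on the setting as given below. With shares near the background and no test of a group, these directions are not read as a result about the complexes. Uqcrc2, Cox15, Surf1, Cox6a1 and Cox8a kept their call under all 13 alternative settings and when any single strain was left out.

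**Figure D1:**
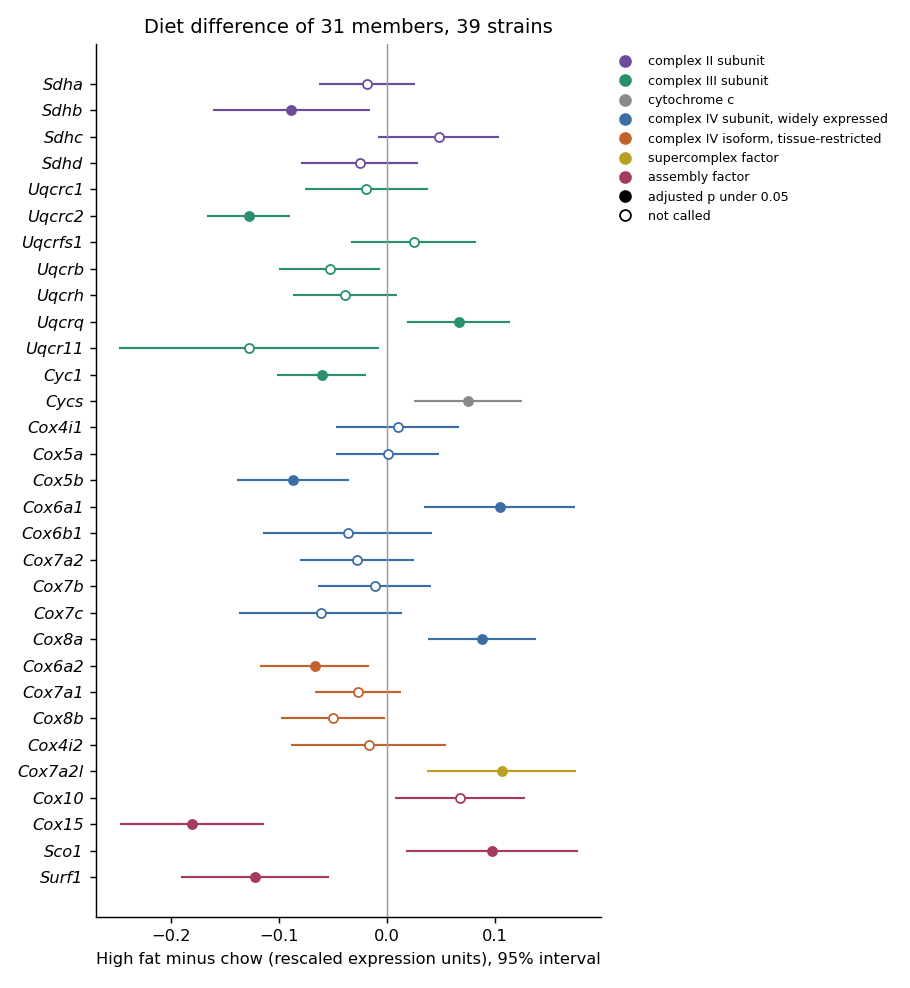
High fat minus chow for each of the 31 measured members (x axis, rescaled expression units), with points for the fitted difference, lines for its 95% interval over 39 strains and colours for the role of the member. Filled points passed an adjusted p of 0.05: 6 lie right of 0 and 7 lie left of it, with Cox15 at -0.180 and Cox7a2l at 0.106 as the outermost filled points.

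In complex II, Sdhb was lower and the other 3 subunits were not called. Sdhb, the iron-sulfur subunit, went from 12.49 to 13.25 over the chow arrays (median 12.92) and from 12.22 to 13.32 over the high fat arrays (median 12.80). The ranges overlapped almost entirely, and 23 of 39 strains were lower. The difference was -0.0885 ± 0.0361 (SE, n = 39 strains, adjusted p = 0.0419). This call was lost in 4 of the alternative settings and when any of 17 strains was left out (adjusted p up to 0.0758). These were BXD44, BXD49, BXD61, BXD63, BXD64, BXD66, BXD69, BXD71, BXD73, BXD81, BXD85, BXD89, BXD95, BXD97, BXD100, C57BL/6J and DBA/2J. The difference was -0.0185 for Sdha, the flavoprotein that oxidises succinate. For Sdhc and Sdhd, the membrane anchors of the complex, it was 0.0478 and -0.0252.

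In complex III, Uqcrc2 and Cyc1 were lower, Uqcrq was higher and the other 5 were not called. Uqcrc2, a core protein on the matrix side, ranged from 14.80 to 15.27 on chow (median 15.02) and from 14.70 to 15.15 on high fat (median 14.86). The ranges overlapped, the high fat median lay near the lower end of the chow range, and 34 of 39 strains were lower. The difference was -0.128 ± 0.0188 (SE, n = 39 strains, adjusted p = 4.396e-07), and -0.119 with the control component as a covariate (adjusted p = 0.000111).

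Cyc1, the cytochrome c1 subunit that hands electrons to cytochrome c, differed by -0.0603 ± 0.0205 (adjusted p = 0.0146) and was lower in 29 strains. That call was lost with the pericyte and smooth muscle markers as a covariate (-0.0481, adjusted p = 0.0671). Uqcrq, a small ubiquinone-binding subunit, differed by 0.0661 ± 0.0236 (adjusted p = 0.0199) and was higher in 26 strains. It was not called with the control component as a covariate (0.0339, adjusted p = 0.372), after quantile normalization or with fat markers as covariates.

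Uqcr11, a small accessory subunit, had a fitted difference nearly as large as that of Uqcrc2, at -0.127, but its strains scattered from -0.879 to 0.621 and it was not called (adjusted p = 0.0778). Uqcrc1, the partner core protein of Uqcrc2, differed by -0.0193 (adjusted p = 0.604). Uqcrfs1, the Rieske iron-sulfur protein, differed by 0.0245. For the small subunits Uqcrb and Uqcrh the difference was -0.0531 and -0.0391, and Uqcrb missed the threshold narrowly (adjusted p = 0.0560).

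Cycs, the somatic cytochrome c, was higher on high fat. Its levels ran from 14.53 to 14.93 on chow and from 14.53 to 15.18 on high fat, so the ranges shared their lower end. The difference was 0.0746 ± 0.0246 (SE, n = 39 strains, adjusted p = 0.0120), with 28 strains higher. Cycs has 5 probe sets with this single name, and 2 of them hold identical values. In a separate limma fit over all 41345 probe sets the brightest had an adjusted p of 0.01455. There the second brightest differed by 0.00769 (adjusted p = 0.898), the 2 identical ones by 0.0786 (0.0969) and the dimmest by 0.0639 (0.0414). All differences were above 0, and the brightest and the dimmest had an adjusted p under 0.05 in that fit. The mean over the Cycs probe sets was not called among genes (0.0607, limma, adjusted p = 0.07515).

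Among the 9 measured widely expressed subunits of complex IV, Cox6a1 and Cox8a were higher, Cox5b was lower and 6 were not called. Cox5b, a zinc-binding subunit, differed by -0.0869 ± 0.0257 (adjusted p = 0.00530), with 28 strains lower. A second and much dimmer Cox5b probe set was lower too, by -0.245 (limma fit over all 41345 probe sets, adjusted p = 0.000560). With the control component as a covariate the brighter probe set differed by -0.0447 (adjusted p = 0.259).

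The 6 without a call were Cox4i1 (0.00972), Cox5a (0.000692), Cox6b1 (-0.0365), Cox7a2 (-0.0277), Cox7b (-0.0115) and Cox7c (-0.0612). Cox4i1 and Cox5a are subunits that regulate the enzyme and contact its catalytic core, and their 95% intervals ran from -0.0474 to 0.0669 and from -0.0469 to 0.0483. Their sign, like that of Cox7b, depended on the setting. The 3 core subunits of complex IV and cytochrome b of complex III are encoded in mitochondrial DNA, and 0 of these 4 genes were measured here.

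Of the 4 tissue-restricted isoforms, Cox6a2 was lower and 3 were not called. Cox6a2, the heart and muscle form of subunit VIa, ranged from 14.79 to 15.26 on chow (median 15) and from 14.61 to 15.15 on high fat (median 14.94). The difference was -0.0666 ± 0.0250 (adjusted p = 0.0272), with 25 strains lower, and the call was lost in 4 settings. These were the control component (adjusted p = 0.109), the fat markers (0.129) and the pericyte and smooth muscle markers (0.0691) as covariates, and all 81 arrays with no strain term (0.135). Cox8b, the muscle form of subunit VIII, differed by -0.0499 and was lower in 26 strains (adjusted p = 0.0845). For Cox7a1, the muscle form of subunit VIIa, the difference was -0.0266, and for Cox4i2 it was -0.0169, with lung markers higher as given above.

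Cox7a2l, a relative of subunit VIIa listed here as a factor for supercomplexes of complexes III and IV, was higher on high fat. Its protein and its function in each strain were not measured here. It ranged from 9.58 to 10.37 on chow (median 10.02) and from 9.66 to 10.61 on high fat (median 10.11). The ranges overlapped widely, yet 30 of 39 strains were higher, by 0.106 ± 0.0343 (SE, adjusted p = 0.0105). With the control component as a covariate the difference was 0.0646 (adjusted p = 0.233).

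The widely expressed and tissue-restricted forms of a subunit can be set against each other within an array, where any shift common to both probe sets cancels. A shift that differs between the probe sets, for example with their level, does not cancel. Across the diets the gap between Cox6a2 and Cox6a1 shrank, and so did the gap between Cox8b and Cox8a. Cox6a1, the form of subunit VIa found in most tissues, ranged from 13.26 to 14.10 on chow (median 13.60) and from 13.37 to 13.95 on high fat (median 13.70), with a difference of 0.104 ± 0.0348 (adjusted p = 0.0131). Cox8a, the general form of subunit VIII, ranged from 13.09 to 13.66 on chow (median 13.40) and from 13.23 to 13.62 on high fat (median 13.47), with a difference of 0.0881 ± 0.0247 (adjusted p = 0.00336). The ranges of the diets overlapped for both genes, and 26 strains were higher for Cox6a1 and 27 for Cox8a.

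Cox6a2 minus Cox6a1 was 1.392 ± 0.146 units on chow and 1.221 ± 0.129 on high fat (SD, n = 39 strains). The change per strain ran from -0.485 in BXD49 over a median of -0.227 to 0.302 in C57BL/6J, and 33 of 39 strains were below 0. Its mean was -0.171 (95% interval -0.227 to -0.114; two-sided sign-flip permutation test, p = 1e-05, the smallest p the draws allow, adjusted over 4 pairs 4e-05). Cox8b minus Cox8a went from 1.759 ± 0.135 to 1.621 ± 0.116, with changes from -0.589 in BXD63 to 0.253 in BXD44 and 32 strains below 0. The mean change was -0.138 (95% interval -0.192 to -0.0836, permutation adjusted p = 4e-05). Both mean changes were smaller in size than 0.247 units, the bound given above for single ERCC spike-ins. Pairs of other genes were not tested, so no background share of pairs stands beside these p-values.

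The other pairs did not pass the test. Cox7a1 minus Cox7a2 changed by 0.00115 (95% interval -0.0415 to 0.0438, permutation adjusted p = 0.958). Cox4i2 minus Cox4i1 changed by -0.0266 (95% interval -0.108 to 0.0552, permutation adjusted p = 0.691). These intervals leave room for small changes of either sign, and the difference between the pairs themselves was not tested. All members of a pair differ in probe sequence, so the gap is not a ratio of transcripts.

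**Figure D2:**
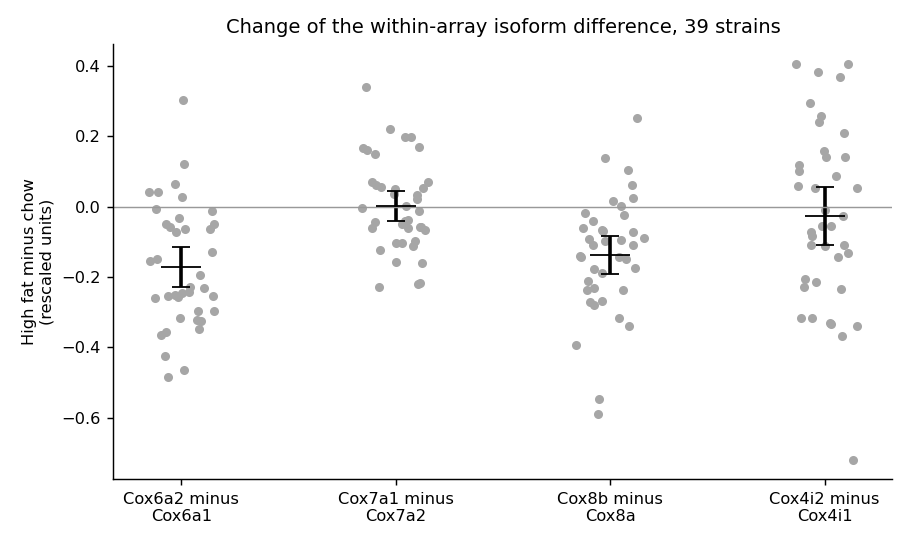
Change between the diets (high fat minus chow, rescaled units) of the within-array difference between a tissue-restricted and a widely expressed isoform. Each grey point is 1 of 39 strains, and the bars show the mean and its 95% interval. The intervals of the Cox6a2 and Cox8b pairs lie below 0, at means of -0.171 and -0.138, and those of the other pairs span 0.

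Widely expressed isoforms are also made by the non-muscle cells of the heart, whose endothelial, fibroblast, macrophage and pericyte markers moved as given above. The mean of the 5 endothelial markers was higher in 34 strains, by 0.0729 ± 0.0839 units (SD), and that of the 5 fibroblast markers in 30 strains, by 0.0917 ± 0.163. The part of endothelial cells, fibroblasts and macrophages in the isoform result was not tested. With the pericyte and smooth muscle markers as a covariate the change was -0.157 for the Cox6a pair and -0.111 for the Cox8 pair, and with the control component it was -0.200 and -0.159. The covariates were applied to the pairs after the data had been seen.

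The isoforms of a subunit also varied together over the arrays of a diet. With 1 array per strain and diet, strain, array and sampled tissue cannot be told apart in these correlations. None of the isoforms in these pairs was called by strain. Correlations between members that are not isoforms of the same subunit are not given, so the relation is not shown to be particular to isoforms. Cox6a2 and Cox6a1 correlated over 42 chow arrays with r = 0.591 and rho = 0.619 (permutation test, adjusted p = 0.00024 and 8e-05, 8 relations), and over 39 high fat arrays with r = 0.666 and rho = 0.676 (adjusted p = 8e-05 for both). Without the 2 arrays farthest from the median of the tissue-restricted isoform, r was 0.618 and 0.629. For Cox8b and Cox8a r was 0.327 and rho 0.341 on chow (permutation adjusted p = 0.0451 and 0.0439), and 0.494 and 0.588 on high fat (adjusted p = 0.00286 and 0.00038), with r = 0.314 and 0.456 without the 2 farthest arrays.

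Cox7a1 and Cox7a2 correlated with r = 0.543 and rho = 0.580 on high fat (permutation adjusted p = 0.000907 and 0.000267, r = 0.595 without the 2 farthest arrays). On chow r was 0.365 (adjusted p = 0.0292, 0.382 without the 2 farthest) and rho was 0.296 (permutation adjusted p = 0.0669). Cox4i2 and Cox4i1 reached r = 0.317 and rho = 0.328 on chow (permutation adjusted p = 0.0465 and 0.0458). Without the 2 farthest arrays r fell to 0.195, a value that was not tested. On high fat r was 0.240 and rho 0.236 (permutation adjusted p = 0.138 and 0.147), with r = 0.292 without the 2 farthest arrays.

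The promoters of the 2 widely expressed genes that rose, of the muscle gene Cox8b and of Cox7c are printed as reference sequence. The first 3 belong to the isoform result and Cox7c to the strain result further on. Each runs over the 250 bases before the RefSeq start on the minus strand of GRCm38.p6. Capitals mark the only motif found in them, GCGCATGCG, a motif of NRF1, which regulates respiratory chain genes.

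Cox6a1 (chr5:115348959-115349208): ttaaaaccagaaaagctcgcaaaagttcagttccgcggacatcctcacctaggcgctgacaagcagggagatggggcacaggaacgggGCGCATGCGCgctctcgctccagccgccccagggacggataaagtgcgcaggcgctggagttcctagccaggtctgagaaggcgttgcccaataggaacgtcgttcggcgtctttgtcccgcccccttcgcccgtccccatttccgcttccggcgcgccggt

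Cox8a (chr19:7217617-7217866): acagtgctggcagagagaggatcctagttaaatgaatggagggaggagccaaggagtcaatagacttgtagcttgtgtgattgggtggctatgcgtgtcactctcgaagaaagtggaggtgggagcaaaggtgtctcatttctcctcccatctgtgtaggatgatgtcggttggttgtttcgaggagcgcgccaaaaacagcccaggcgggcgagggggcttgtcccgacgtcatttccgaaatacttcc

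Cox8b (chr7:140900447-140900696): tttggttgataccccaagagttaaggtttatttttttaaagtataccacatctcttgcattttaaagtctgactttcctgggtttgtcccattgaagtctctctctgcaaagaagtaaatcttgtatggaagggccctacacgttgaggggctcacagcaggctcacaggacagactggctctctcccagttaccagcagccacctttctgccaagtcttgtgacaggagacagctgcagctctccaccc

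Cox7c (chr13:86046796-86047045): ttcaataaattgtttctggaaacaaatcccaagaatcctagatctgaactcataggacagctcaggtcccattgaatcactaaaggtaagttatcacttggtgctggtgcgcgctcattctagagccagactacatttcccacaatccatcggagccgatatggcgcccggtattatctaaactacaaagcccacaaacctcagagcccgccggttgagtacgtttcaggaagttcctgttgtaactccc

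In the Cox6a1 promoter that motif begins 162 bases before the start and overlaps its own match on the opposite strand. It was found in 2 of 26 member promoters with a RefSeq entry, those of Cox6a1 and Cycs, and in 1.45% of 32851 promoters, each read over the same 250 bases and on both strands. The GABPA motif CCGGAAGT was found in 3 members, Cox10, Uqcr11 and Uqcrh, and in 2.88% of all promoters. The ERR motif TCAAGGTCA and the YY1 motif AAGATGGC were found in 0 members and in 0.387% and 1.56% of all promoters. These searches describe letters in a window and bear on no factor's binding.

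Of the 4 measured assembly factors of complex IV on the list, Cox15 and Surf1 were lower, Sco1 was higher and Cox10 was not called. Cox15, which makes the heme A of complex IV, ranged from 10.31 to 11 on chow (median 10.66) and from 9.996 to 10.74 on high fat (median 10.46). Both ends of the range and its median were lower on high fat, the ranges overlapped, and 32 of 39 strains were lower. The difference of -0.180 ± 0.0331 (SE, adjusted p = 2.062e-05) was the largest in size among the members, and -0.177 with the control component as a covariate.

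Surf1, a factor of early complex IV assembly, ranged from 9.43 to 10.21 on chow (median 9.85) and from 9.37 to 10.01 on high fat (median 9.73). It differed by -0.122 ± 0.0338 (adjusted p = 0.00298) and was lower in 28 strains. Sco1, a copper chaperone of complex IV, differed by 0.0970 ± 0.0396 (adjusted p = 0.0421). That call was lost in 5 of the alternative settings and when any of 14 strains was left out (adjusted p up to 0.0763), namely BXD43, BXD44, BXD55, BXD62, BXD70, BXD71, BXD73, BXD87, BXD90, BXD96, BXD98, BXD99, BXD100 and BXD103. Cox10, which makes the heme O that Cox15 converts, differed by 0.0677 and was higher in 28 strains (adjusted p = 0.0604). Cox10 and Cox15 act in the same short pathway and their fitted differences had opposite signs.

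Further genes of the same machinery were taken as lists. Of 4 complex II assembly factors 1 was lower and 3 were not called, beside 21.2% lower and 45.0% called over all genes. Sdhaf1, which helps to insert iron-sulfur clusters into Sdhb, had 10.26 ± 0.147 units on chow and 9.87 ± 0.174 on high fat (SD, n = 39). It was lower in 39 of 39 strains, by -0.390 ± 0.0293 (SE, adjusted p = 2.607e-14), a difference larger in size than that of any member. Of 6 complex III assembly factors 1 was lower and 5 were not called, against the same shares over all genes. Bcs1l, which inserts the Rieske protein Uqcrfs1, differed by -0.195 ± 0.0321 (adjusted p = 3.451e-06) and was lower in 32 strains.

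Of 20 measured complex IV assembly factors outside the member list 8 were higher, 4 were lower and 8 were not called, with a median of 0.0302, beside 23.8% higher and 21.2% lower over all genes. Cmc1, a factor of early Cox1 assembly, was lower by -0.189 ± 0.0343 (adjusted p = 1.68e-05). Cmc2 (0.178), Coa7 (0.167) and Cox14 (0.150) were higher, each in at least 31 strains. Of 4 further complex IV subunits 3 were lower and 1 higher. Ndufa4, once counted with complex I, differed by -0.132 ± 0.0298 (adjusted p = 0.000348) and was lower in 31 strains. The other 3, Cox6b2, Cox7b2 and Cox8c, are forms best known from testis, with mean levels of at most 8.06 units on either diet.

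Among 10 regulators of respiratory genes 0 were higher and 3 were lower, beside 23.8% higher and 21.2% lower over all genes. With 10 genes these counts were not tested as a set. Esrrg, a nuclear receptor that drives oxidative genes in the heart, went from 10.09 ± 0.118 to 9.94 ± 0.107 (SD) and was lower in 34 of 39 strains, by -0.150 ± 0.0257 (SE, adjusted p = 7.023e-06). Nrf1 differed by -0.105 (adjusted p = 0.00755) and the coactivator Ppargc1a by -0.0803 (adjusted p = 0.0397). Gabpa, Tfam and Esrra were not called (adjusted p = 0.336, 0.232 and 0.169).

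The diet difference of the members was not uniform over strains. In BXD48 26 of 31 members were higher on high fat, with a median difference of 0.180, and 10 members had their largest rise there. In BXD96 27 members were higher, with a median of 0.159. In BXD63 25 members were lower, with a median of -0.184, and 6 had their largest fall there. In BXD95 26 were lower, with a median of -0.166. The mean of the ventricular markers changed by 0.236 in BXD48, by -0.0299 in BXD96, by -0.217 in BXD63 and by -0.108 in BXD95. The mean of the atrial markers changed by -0.564, -1.541, 3.488 and 1.351 in these strains. With 1 array per strain and diet a single strain has no replicate, and the part of the sampled tissue in these values was not tested.

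The second comparison asked how far strains differed, from the agreement of the chow array with the high fat array of each strain. The intraclass correlation is near 1 where the 2 arrays of a strain agree relative to the spread between strains. By limma's F test 6 of the 31 members were called, against 14.8% of all genes and 26.7% of the genes at or above the dimmest member. The median intraclass correlation of the members was 0.321, beside 0.155 over all genes. The members are brighter than most genes, and a median over genes of like level was not computed. The called members were Cox7c (0.871), Sdhc (0.794), Uqcrc2 (0.579), Cox5b (0.578), Uqcrb (0.559) and Cox7b (0.490). Cycs was not called (0.334), but its second brightest probe set had 0.497 (limma's F test over all 41345 probe sets, adjusted p = 0.00878). None of the 4 assembly factors was called, with values from 0.108 to 0.314.

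**Figure D3:**
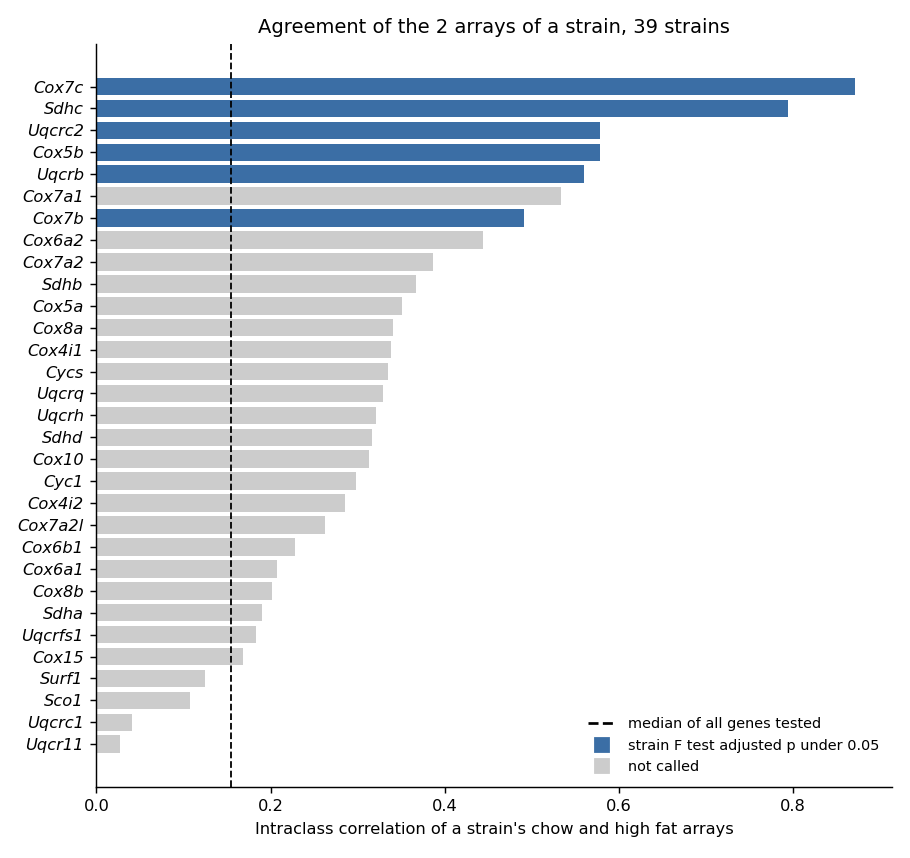
Intraclass correlation between the 2 arrays of a strain for the 31 measured members over 39 strains (bars, from 0). Blue bars passed the strain F test at an adjusted p of 0.05 and grey bars did not. The dashed line marks the median of all genes tested, 0.155, whatever their level. Cox7c at 0.871 and Sdhc at 0.794 have the longest bars.

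Cox7c, a small subunit of complex IV, had the clearest strain difference of the members (adjusted p = 1.296e-12). Strain means ran from 8.42 in BXD45 to 9.89 in BXD90, with a median of 9.59. They left a gap of 0.273 units, with 9 strains below it and 30 above. The strains below, in rising order, were BXD45, BXD62, BXD56, BXD50, BXD63, DBA/2J, BXD66, BXD68 and BXD85. Their single arrays lay between 8.41 and 8.98 on chow and between 8.28 and 8.82 on high fat. Those of the 30 strains above lay between 9.05 and 10.06 on chow and between 9.12 and 9.91 on high fat, so the sets overlapped on neither diet, although only 8.98 and 9.05 separate them on chow. On chow alone the widest gap, of 0.202 units, lay higher and put 11 strains below it, BXD87 and BXD97 included, and 28 above. The sets were read from these same values and were not tested.

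The strains with a chow array alone had 9.72 units (BXD60), 8.95 (BXD79) and 10.03 (BXD92a). The parents lay on opposite sides of the gap. C57BL/6J had 9.97 on chow and 9.77 on high fat, and DBA/2J had 8.96 and 8.53. DBA/2J minus C57BL/6J was -1.128 ± 0.165 (SE, limma, adjusted p = 6.84e-06). Cox7c was the only member called between the parents, against 2.36% of all genes, and each parent has 1 array per diet. Sequence differences between the parents under the probes were not analysed here.

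**Figure D4:**
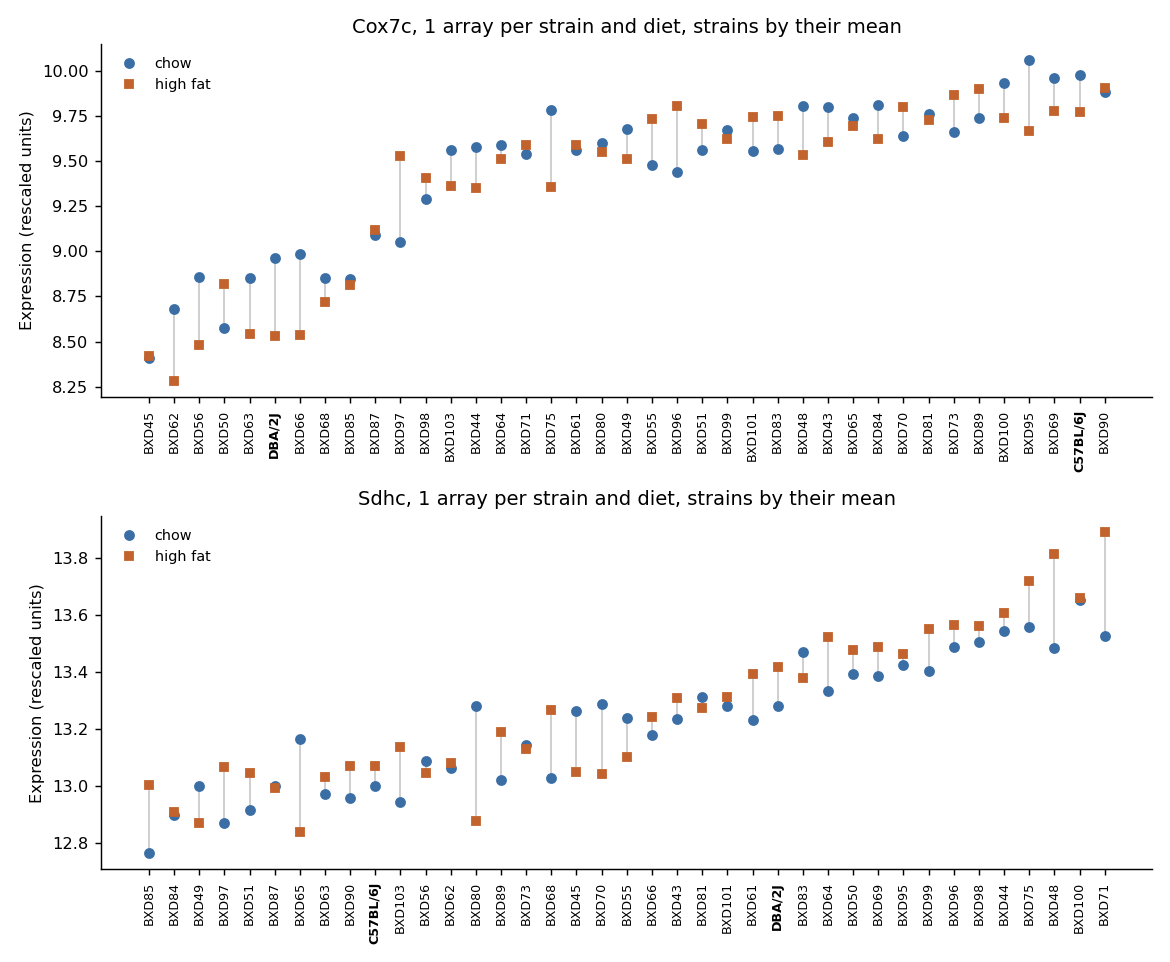
Expression (rescaled units) of Cox7c and Sdhc on each array of 39 strains, ordered by strain mean, with circles for chow, squares for high fat and a grey line joining the 2 arrays of a strain. Parent names are in bold. In Cox7c 9 strains, DBA/2J among them, lie below 9 units on both diets, and Sdhc rises without such a break from BXD85 to BXD71.

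By the likeness of strain means to Cox7c over 39 strains, the genes with the highest positive r were Rasa1 (r = 0.802), Prxl2c (0.636), Zfp874a (0.593), Sox17 (0.585) and Rab5a (0.568). The first 3 lie on chromosome 13, as Cox7c does, and Sox17 and Rab5a on chromosomes 1 and 17. Rhobtb3 (r = -0.679) and Iqgap2 (r = -0.642), also on chromosome 13, ran in the opposite direction. Rasa1, which encodes a Ras GTPase-activating protein, is also the next measured gene to Cox7c on one side. Its mean level was 10.67 to 11 in the 9 strains below the Cox7c gap and 10.92 to 11.28 in the 30 above. Within these sets the relation was weak, with r = -0.120 (rho = -0.0667, permutation adjusted p = 0.756 and 0.882, r = -0.0722 without the 2 farthest strains) below. Above the gap r was 0.412 and rho 0.231 (permutation adjusted p = 0.0952 and 0.479), and r fell to 0.0946 without the 2 farthest strains.

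Of the 10 measured genes nearest to Cox7c, 5 on either side, Rasa1 and Vcan were called by strain, with intraclass correlations of 0.651 and 0.413. The strain means of Vcan, a matrix proteoglycan, had an r of 0.0270 with those of Cox7c. Neighbours that differ by strain therefore did not all share the pattern of Cox7c.

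Sdhc, a membrane anchor of complex II, followed (adjusted p = 3.716e-08). Its strain means ran without a wide gap from 12.88 in BXD85 to 13.71 in BXD71, with a median of 13.17. C57BL/6J had 13 units on chow and 13.07 on high fat, and DBA/2J had 13.28 and 13.42, a difference of 0.315 ± 0.122 that was not called (adjusted p = 0.210). The next measured gene on chromosome 1, Pcp4l1, was chosen for display after its values had been seen. It encodes a small calmodulin-binding protein and had an intraclass correlation of 0.954, with DBA/2J below C57BL/6J by -1.51 units (adjusted p = 6.82e-11). Its strain means had an r of -0.871 with those of Sdhc (rho = -0.759). Other near genes called by strain were Fcgr3 (r = -0.732), Cfap126 (-0.532), Fcgr2b (-0.297) and Fcgr4 (-0.0703). Ncstn, also on chromosome 1, had an r of -0.868. The relation was thus not particular to Pcp4l1.

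Pcp4l1 strain means left a gap between 11.68 and 12.28. The 18 strains below that gap had Sdhc means from 13.27 to 13.71, and the 21 strains above it had Sdhc means from 12.88 to 13.21. The means did not overlap. On single arrays the Sdhc ranges were 13.23 to 13.65 against 12.76 to 13.29 on chow, which overlap. On high fat they were 13.27 to 13.89 against 12.84 to 13.26 and did not overlap, although only 13.273 and 13.265 separate them. The sets were cut by a neighbour chosen after its values had been seen, and the split was not tested. Within the sets r was -0.363 and rho -0.290 below the gap (permutation adjusted p = 0.275 and 0.479, r = -0.457 without the 2 farthest strains). Above it r was 0.133 and rho 0.1 (permutation adjusted p = 0.750 and 0.882, r = -0.116 without the 2 farthest strains).

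**Figure D5:**
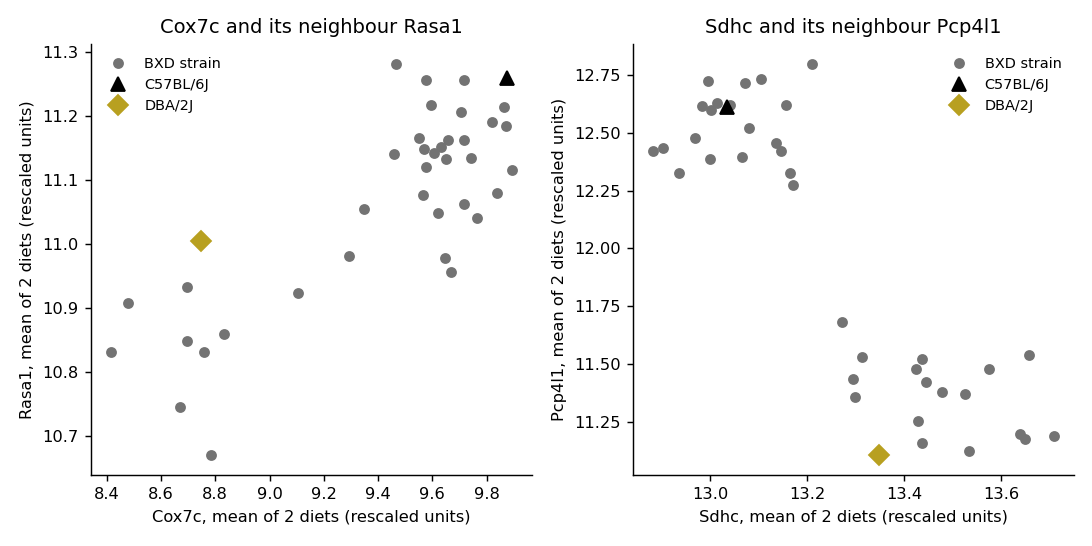
Strain means over both diets (rescaled units) of Cox7c against its neighbour Rasa1 and of Sdhc against its neighbour Pcp4l1, 1 point per strain over 39 strains, with the parents marked. In the right panel the 18 strains with Pcp4l1 at or below 11.68 all have Sdhc at or above 13.27, and the 21 others have Sdhc at or below 13.21.

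The 4 other strain calls were smaller and depended more on the setting. Uqcrc2 means ran from 14.75 in BXD99 to 15.17 in BXD71 (adjusted p = 0.0423). The call was lost after quantile normalization (adjusted p = 0.396), with atrial markers as a covariate (0.0806) and when BXD55, BXD66, BXD71, BXD73, BXD81, BXD83, BXD85, BXD99 or BXD101 was left out (up to 0.109). Cox5b means ran from 13.86 in BXD101 to 14.46 in BXD71 (adjusted p = 0.00272), with both parents next to the lowest at 13.94 for DBA/2J and 13.99 for C57BL/6J. That call was lost for the mean over probe sets (adjusted p = 0.0675). The second Cox5b probe set had an intraclass correlation of 0.403 (limma's F test over all 41345 probe sets, adjusted p = 0.0315). Uqcrb ran from 14.91 in BXD98 to 15.41 in BXD73 (adjusted p = 0.00971) and was not called after quantile normalization (0.0776). Cox7b, the X-linked member, ran from 14.54 in BXD101 to 15.06 in BXD48 (adjusted p = 0.0190). Its call was lost after quantile normalization (0.110) and for the mean over probe sets (0.192), and its second probe set had an intraclass correlation of 0.0710.

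The muscle isoforms Cox6a2 and Cox7a1 just missed the threshold, with intraclass correlations of 0.444 and 0.533 (adjusted p = 0.0503 and 0.0559). Cox7a2l was not called by strain (0.263, adjusted p = 0.166). Its means ran from 9.73 in BXD55 to 10.30 in BXD89, and the parents differed by 0.247 ± 0.152 (adjusted p = 0.528).

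Certain strains stood at the end of the order for several members. BXD71 had the highest mean for 7 of the 31 members, including Sdhc, Uqcrc2 and Cox5b, and ranked 38 of 39 from the bottom in the mean of the ventricular markers. BXD99, BXD49 and BXD98 each had the lowest mean for 4 members, and ranked 1, 9 and 22 in the ventricular markers. The part of the makeup of the samples in these ranks was not tested.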

How the data were processed

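Heart RNA was measured on 81 Affymetrix arrays. Each probe set has a deposited score, log-like with no stated base, made with Affymetrix Expression Console per the submitters' processing notes (version not named). The sources used here do not give how probes were summarised. Every array was found to have mean 8 and SD 2 over 41345 probe sets, which removes shifts shared by most transcripts. The design had assumed log2 values. Of the probe sets 23521 have 1 gene symbol in the platform table, 1814 several and 16010 none.

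For each of 22180 genes the brightest probe set with a single symbol was used, with no filter on level. In R 4.3.3, limma 3.58.1 (lmFit, eBayes) fitted strain and diet on the 78 arrays of 39 strains, with Benjamini-Hochberg adjustment over all genes. The pairing comes from the strain labels. Strain was tested by limma's F test, and the parents as a contrast. Isoform pairs were tested by flipping signs over strains and correlations by permutation (1e+05 draws, two-sided). Groups were taken from the treatment and genotype labels. Members and lists were chosen with earlier results of these data known. Members are all given with their diet difference. Full values go to members called with at least 30 strains in a direction, the 8 highest intraclass correlations among strain calls, and the pairs. Other lists give up to 4 called genes by adjusted p, and Cox7c its 5 genes of highest positive r and 5 neighbours on either side. Values outside that rule were added after they were seen.

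Alternatives covered the strain term, normalization, array weights, variance model, probe set, dim genes, parents, and marker or control covariates. Leaving out each strain was added later. On simulated data 67 of 100 genes shifted by 0.2 units between the diets were called. So were 11 of 100 shifted by 0.1 and 6 of 21980 unchanged genes. On the arrays 45.0% of genes were called, and the adjusted threshold is stricter where few genes differ. These shares therefore do not carry over, and how often small differences were missed on the arrays was not tested. The simulation held no technical difference between the diets. Arrays give no depth, and their number limits the precision. RefSeq tables (GRCm38.p6) gave promoters and the order of genes. The NRF1 motif was shortened by 1 letter after a first search, in which Cox6a1 was the only member to hold it.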

Additional observations from a re-analysis of the deposited data

How the results depend on the processing

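Over the 13 alternatives 360 of 403 diet differences of members kept their direction and side of the threshold, 21 lost a call, 11 gained one and 11 turned sign. Of 248 intraclass correlations 228 kept their side, 6 lost a call and 14 gained one. With no replicate block for strain and all 81 arrays in place of the 78 paired ones, 5 members were higher and 5 lower, against 6 and 7, which changed no count by over 1.5 times. This setting changes the block and the arrays together. The count of members higher fell to 3 with the control component as a covariate, and the count lower to 4 with the pericyte and smooth muscle covariate. Strain calls rose from 6 to 12 with trended, robust variances and to 10 among genes above the median level. The change of the Cox7a1 pair turned to -0.00580 after quantile normalization. Of the members that were not called, Cox5a turned to -0.000396 with no replicate block and all 81 arrays, -0.00777 after quantile normalization, -0.00663 with array weights, -0.0226 with fat covariates and -0.00971 with the control component. Cox4i1 turned to -0.00763 with fat covariates and -0.00228 with the control component, and Uqcrfs1 to -0.0169 with the latter. Cox7b turned to 0.0188 for the mean over probe sets, 0.0492 for its second probe set and 0.00153 with the control component. The cause was not tested. Leaving out each strain in turn gave 5 to 7 members higher, 6 to 9 lower and 5 to 8 called by strain. Diet calls were gained for Uqcrb without BXD48, BXD49, BXD62, BXD65, BXD70, BXD81, BXD84, BXD90 or BXD96, for Cox10 without BXD63, BXD69, BXD70, BXD95 or BXD101, for Uqcr11 without BXD62 or BXD65, and for Cox8b without BXD48. Strain calls were gained for Sdhb without BXD62, BXD63, BXD65, BXD69, BXD71, BXD85, BXD89, BXD97 or BXD98, for Cox6a2 without BXD43, BXD48, BXD68, BXD69, BXD80 or BXD90, for Cox7a1 without BXD48, BXD63, BXD80, BXD89 or BXD95, for Cox7a2 without BXD43 and for Cox4i2 without BXD75. Marker covariates for endothelial cells, fibroblasts and macrophages were not run. Signal over background per probe set was not analysed here.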

Other observations

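Among complex IV assembly factors outside the member list, Cox18, which inserts a part of Cox2 into the membrane, had an intraclass correlation of 0.921 between the diets, above that of every member. It was chosen after its values had been seen. Its diet difference was 0.0521 ± 0.0255 (SE, limma, n = 39 strains, adjusted p = 0.0921). In the same list Cox17 and Cox19, copper proteins of the intermembrane space, were higher on high fat by 0.176 and 0.149 (limma, adjusted p = 0.000193 and 8.471e-05), in 30 and 31 of 39 strains. Coa5 was higher by 0.156 in 32 strains. Oxa1l, the insertase of the inner membrane, was lower by -0.0654 in 30 strains (adjusted p = 0.0111), and Higd1a by -0.0977 in 28 (adjusted p = 0.0419).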
